A study of Mus musculus with 10 samples.

Results

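Expression of 10 genes that govern exit from the cell cycle was examined in mouse granulosa cells without and with the progesterone receptor. They were the CDK inhibitors Cdkn1a, Cdkn1b, Cdkn1c, Cdkn2c and Cdkn2d, the D cyclins Ccnd1, Ccnd2 and Ccnd3, and the kinases Cdk4 and Cdk6, taken by name from the annotation of a whole-transcript microarray. A gene was measured where a probe set carried its symbol alone, and 9 of the 10 were, out of 19938 genes measured in all. Cdkn1a was the exception.

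In PRKO mice a lacZ cassette sat in both Pgr alleles, which disrupts both receptor isoforms in every tissue, and in the PR+/- controls it sat in 1 allele, so no wild-type mice were in the comparison. All mice were 21 to 23 days old, received 5 IU of equine chorionic gonadotropin to grow follicles, and 44 to 47 h later received 5 IU of human chorionic gonadotropin (hCG), which acts like the luteinizing hormone surge. Cells were taken by puncture of antral follicles 8 h after hCG, and each of the 5 samples per genotype pooled 3 animals (15 animals per genotype). The comparison asks which transcripts depend on the receptor at this stage of ovulation.

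D cyclins bind and activate CDK4 and CDK6, which phosphorylate the retinoblastoma protein and so open the way into S phase. Inhibitors of the Ink4 family block CDK4 and CDK6 alone, whereas those of the Cip/Kip family bind cyclin-CDK complexes more widely. Granulosa cells of growing follicles divide under follicle-stimulating hormone, for which cyclin D2 is needed in the mouse, and they stop dividing as they luteinize after the surge, when p27, the product of Cdkn1b, accumulates. Because each sample was a pool of bulk cells, fewer cells of a type and less RNA per cell cannot be told apart.

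The deposited log2 values had array medians between 6.48 and 6.55 and correlations between arrays of 0.973 to 0.992. Pgr itself had a log2 value of 6.45 ± 0.32 in PRKO and 6.91 ± 0.70 in PR+/- (SD, n = 5 pools each, limma adjusted p = 0.527). The sources used here do not say where its probe set lies relative to the cassette, so it checks no genotype label. All 7 measured granulosa markers, among them Amhr2, Inha and Foxl2, lay above 5.86, the 95th percentile of 1027 olfactory receptor genes that stand for background. The mean log2 value of these 7 markers ran from 10.28 to 11.07 in PRKO pools and from 10.35 to 10.71 in PR+/- pools. None of the 7 passed the test described below, although 6 had an unadjusted p under 0.05 in limma, against 13.0% of all genes. Their log2 differences ran from -0.49 to 0.60, with 6 above zero and 1 below it. Of 38 measured markers of cumulus, theca and stroma, endothelium, leukocytes, oocytes, erythrocytes and surface epithelium, none passed the test in limma (3 at an unadjusted p under 0.05). Yet 33 of the 38 lay above 5.86, among them all 4 cumulus, 7 theca and stroma and 7 oocyte markers. The oocyte markers averaged 8.31 to 9.21 in PRKO pools and 8.37 to 9.10 in PR+/- pools. All 7 read lower in PRKO, with log2 differences from -0.24 to -0.07. Over the 38 markers 23 differences were negative and 15 positive. The part of such cells in the values of other genes was not tested.

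Among the 9 measured genes, 1 fell and none rose in PRKO in limma, with p adjusted by Benjamini and Hochberg's method over all genes and a threshold of 0.05. The gene that fell was Ccnd3, and Cdk6, with a larger difference but wider spread, lay just beyond the threshold. Over all genes tested 2.46% passed, 1.71% as lower and 0.752% as higher in PRKO, so that 1 of 9 (11.1%) rests on a single gene. The number of genes that passed as higher, 150, was 89, 93, 92, 85 and 95 without PRKO pool 1 or 5 or PR+/- pool 1, 3 or 4. It was 102, 161, 124, 154 and 107 without PRKO pool 2, 3 or 4 or PR+/- pool 2 or 5. At an unadjusted p under 0.05 stood 4 of the 9, Ccnd3, Cdk6, Cdkn1b and Cdkn1c, against 13.0% of all genes. The pools of the 2 genotypes overlapped in each of the 9 genes, whereas they did not overlap in 4.42% of all genes. The median log2 difference, PRKO minus PR+/-, was 0.09 over the 9 genes and -0.02 over all genes, with 3 of the 9 below zero and 6 above it. All 9 lay above the background level of 5.86. The count of calls among them was 2, Ccnd3 and Cdk6, under 5 of 9 other settings and 0 when every probe set was fitted, and it was 0 when any 1 of 6 pools was left out (PRKO 1 or 4, PR+/- 1, 3, 4 or 5).

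**Figure D1:**
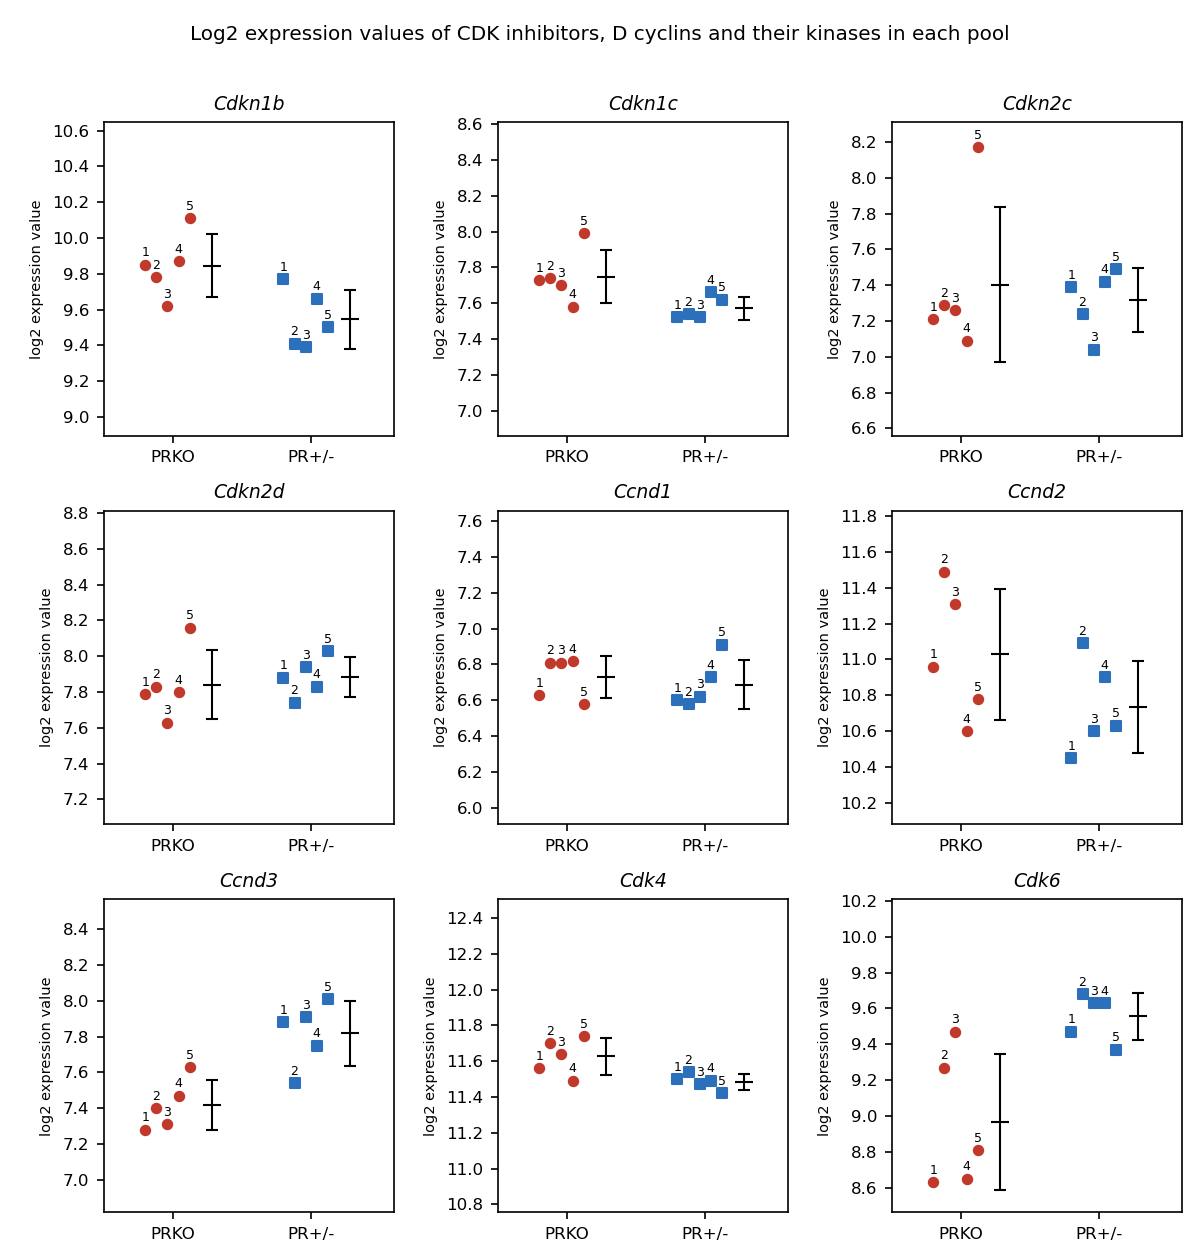
Log2 expression values (vertical axes, each spanning the same range) of the 9 measured genes in PRKO pools (red circles) and PR+/- pools (blue squares), with the pool number beside each point and bars for the mean ± SD of 5 pools. Ccnd3 and Cdk6 each had 4 PRKO pools under the lowest PR+/- pool, and PRKO pool 5 stood apart in Cdkn2c at 8.17.

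Cyclin D3, the product of Ccnd3, is the D cyclin best known for its part in differentiating cells and lymphocytes. Its log2 values were 7.28, 7.40, 7.31, 7.47 and 7.63 in PRKO pools 1 to 5, against 7.88, 7.54, 7.91, 7.75 and 8.01 in PR+/- pools 1 to 5. Thus 4 of 5 PRKO pools lay under every control pool, and PRKO pool 5 lay above PR+/- pool 2, the lowest control. Ccnd3 averaged 7.42 ± 0.14 in PRKO and 7.82 ± 0.18 in PR+/- (SD, n = 5 pools each), so that the log2 difference was -0.40 (SE 0.10, 95% interval -0.61 to -0.20, limma adjusted p = 0.0421). This corresponds to a level in PRKO of 0.757 of that in PR+/- (95% interval 0.656 to 0.873). The call was lost without any 1 of 8 pools, PRKO 1 to 4 and PR+/- 1, 3, 4 and 5, with limma adjusted p up to 0.117, while the difference stayed between -0.47 and -0.35.

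Cyclin D2, the D cyclin that follicle-stimulating hormone induces in granulosa cells, had a difference of the opposite sign. Ccnd2 had log2 values of 10.96, 11.49, 11.31, 10.60 and 10.78 in PRKO pools 1 to 5, against 10.45, 11.09, 10.60, 10.90 and 10.63 in PR+/- pools 1 to 5. PRKO pools 2 and 3 lay above every control and the other 3 lay among them. Its log2 difference of 0.30 (SE 0.16, 95% interval -0.05 to 0.65, limma adjusted p = 0.486) did not pass, and the interval leaves room for a level in PRKO between 0.963 and 1.56 of that in PR+/-. The log2 difference was 0.18 without PRKO pool 2 and ran up to 0.40 with other pools left out. PRKO pools 2 and 3 were also the highest of their genotype in the mean of the granulosa markers, at 10.91 and 11.07, against 10.28 to 10.68 in PRKO pools 1, 4 and 5. The part of that marker level in the Ccnd2 values was not tested.

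Cyclin D1, the mitogen-responsive D cyclin of many other tissues, differed least of the D cyclins. Ccnd1 ranged from 6.58 to 6.82 in PRKO and from 6.58 to 6.91 in PR+/-, with means of 6.73 ± 0.11 and 6.69 ± 0.14 (SD, n = 5 pools each). The log2 difference was 0.04 (SE 0.08, 95% interval -0.14 to 0.22, limma adjusted p = 0.882), an interval that does not reach the size of the Ccnd3 difference in either direction. Whether the differences of the D cyclins differ from each other was not tested.

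CDK6 is one of the kinases that D cyclins activate. Cdk6 had log2 values of 8.63, 9.27, 9.47, 8.65 and 8.81 in PRKO pools 1 to 5, against 9.47, 9.68, 9.63, 9.63 and 9.37 in PR+/- pools 1 to 5. PRKO pools 1, 4 and 5 lay far under all controls and pool 2 just under them, whereas pool 3 lay among the controls. The mean was 8.97 ± 0.38 in PRKO and 9.56 ± 0.13 in PR+/- (SD, n = 5 pools each), so that the log2 difference was -0.59 (SE 0.15, 95% interval -0.91 to -0.27). This difference lay at the 98.8th percentile of all genes by absolute size, yet its limma adjusted p was 0.0557. Its residual SD of 0.29 lay at the 95.7th percentile of all genes. Without PRKO pool 3 the log2 difference was -0.72 with a limma adjusted p of 0.00635, and without PRKO pool 2 it was -0.67 with 0.0399; without any other pool the limma adjusted p was 0.0698 to 0.140.

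CDK4, the other kinase that D cyclins activate, had the opposite sign. Cdk4 ranged from 11.49 to 11.74 in PRKO and from 11.42 to 11.54 in PR+/-, with means of 11.63 ± 0.10 and 11.48 ± 0.04 (SD, n = 5 pools each). It varied little, its residual SD of 0.08 having a percentile of 7.92 among all genes. The log2 difference of 0.14 (SE 0.07, 95% interval -0.0010 to 0.29, limma adjusted p = 0.389) did not pass, and 4 of 5 PRKO pools lay above every control.

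**Figure D2:**
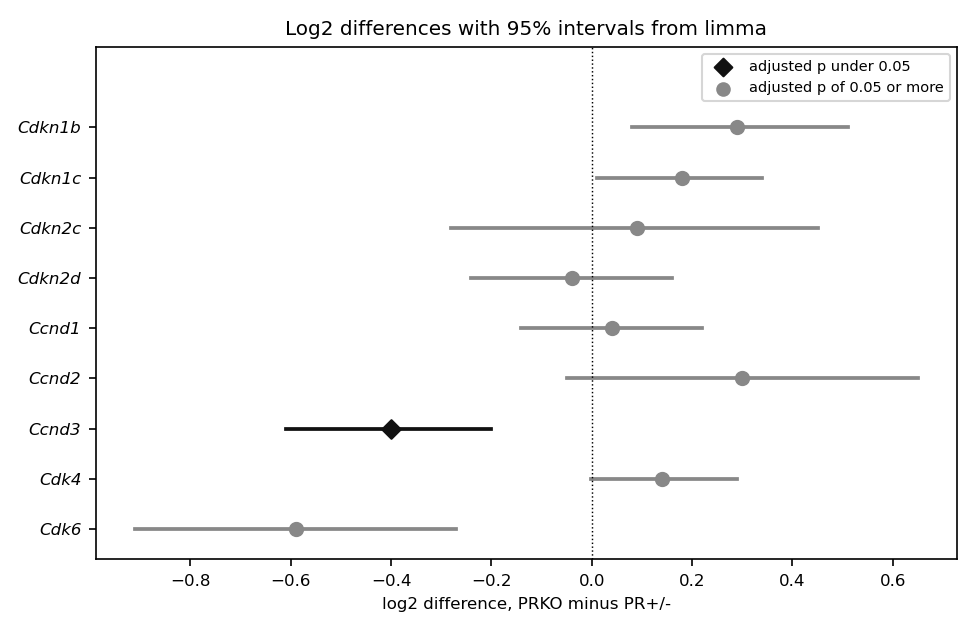
Log2 differences, PRKO minus PR+/-, of the 9 genes (points) with limma's 95% intervals (lines, unadjusted), where the black diamond marks an adjusted p under 0.05. The intervals of Ccnd3 and Cdk6 lie left of 0, those of Cdkn1b and Cdkn1c right of it, and those of the other 5 genes span 0.

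The Cip/Kip inhibitors that were measured both read higher in PRKO without passing the test. Cdkn1b, which encodes p27, had log2 values of 9.85, 9.78, 9.62, 9.87 and 10.11 in PRKO pools 1 to 5, against 9.77, 9.41, 9.39, 9.66 and 9.50 in PR+/- pools 1 to 5. Only PRKO pool 3 lay among the controls. The log2 difference was 0.29 (SE 0.10, 95% interval 0.08 to 0.51, limma adjusted p = 0.190), with all 5 PRKO pools above the PR+/- mean. Another, dimmer probe set of Cdkn1b gave means of 8.15 ± 0.29 in PRKO and 7.83 ± 0.29 in PR+/- (SD, n = 5 pools each). Its log2 difference was 0.33 (SE 0.16, limma adjusted p = 0.508 over all probe sets), of the same sign and like size.

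Cdkn1c, an imprinted gene, encodes p57. It ranged from 7.58 to 7.99 in PRKO and from 7.52 to 7.66 in PR+/-, with means of 7.75 ± 0.15 and 7.57 ± 0.06 (SD, n = 5 pools each). The log2 difference of 0.18 (SE 0.08, 95% interval 0.01 to 0.34) had a limma adjusted p of 0.355, and it was 0.12 without PRKO pool 5, the highest pool. Cdkn1a, which encodes p21 and is a classic target of p53, had no probe set of its own. The probe set annotated to both 4930567H12Rik and Cdkn1a, which can be assigned to neither, read 9.19 ± 0.12 in PRKO and 9.34 ± 0.30 in PR+/- (SD, n = 5 pools each). Its log2 difference was -0.15 (SE 0.13, limma adjusted p = 0.730 over all probe sets).

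The Ink4 inhibitors did not pass either. Cdkn2c, which encodes p18, had log2 values of 7.21, 7.29, 7.26, 7.09 and 8.17 in PRKO pools 1 to 5, against 7.39, 7.24, 7.04, 7.42 and 7.49 in PR+/- pools 1 to 5. PRKO pool 5 lay above all other pools, and the other 4 PRKO pools lay among the controls. The log2 difference of 0.09 (SE 0.17, 95% interval -0.28 to 0.45, limma adjusted p = 0.878) was -0.10 without PRKO pool 5. Cdkn2d, which encodes p19, ranged from 7.63 to 8.16 in PRKO and from 7.74 to 8.03 in PR+/- (log2 difference -0.04, SE 0.09, 95% interval -0.24 to 0.16, limma adjusted p = 0.909).

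PRKO pool 5 was the highest of the 5 PRKO pools in 6 of the 9 genes, all 4 measured inhibitors with Ccnd3 and Cdk4. It was the highest PRKO pool in 21.1% of all genes. PRKO pool 4 was the lowest of its genotype in 4 of the 9 genes, against 20.6% of all genes. Among PR+/- pools, pool 5 was highest in 4 of the 9, against 20.1% over the array. Without PRKO pool 5 the count of genes called among the 9 was still 1, again Ccnd3, with a limma adjusted p of 0.0241.

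The annotated promoters of the 3 genes with the smallest p show what sequence lies at the starts of the transcripts described above. RefSeq promoters (build GRCm38.p6, 250 bases before to 50 after a start) were at hand for 7 of the 10 genes, and Ccnd3 has 2 annotated starts. The motifs searched on both strands were the full palindromic progesterone response element, its half-site TGTTCT, the E2F sites TTTGGCGC and TTTCCCGC, the GC box GGGCGG, the FOXO site GTAAACA and the CCAAT box CCAAT, and matches are in capitals, 5′ to 3′ on the plus strand.
Ccnd3, upstream start, chr17:47504801-47505100: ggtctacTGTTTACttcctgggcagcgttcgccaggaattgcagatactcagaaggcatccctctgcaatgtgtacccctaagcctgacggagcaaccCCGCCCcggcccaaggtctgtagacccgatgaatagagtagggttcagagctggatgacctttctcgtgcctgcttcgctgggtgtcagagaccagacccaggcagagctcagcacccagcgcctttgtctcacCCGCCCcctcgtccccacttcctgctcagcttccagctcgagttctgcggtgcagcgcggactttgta
Ccnd3, downstream start, chr17:47593217-47593516: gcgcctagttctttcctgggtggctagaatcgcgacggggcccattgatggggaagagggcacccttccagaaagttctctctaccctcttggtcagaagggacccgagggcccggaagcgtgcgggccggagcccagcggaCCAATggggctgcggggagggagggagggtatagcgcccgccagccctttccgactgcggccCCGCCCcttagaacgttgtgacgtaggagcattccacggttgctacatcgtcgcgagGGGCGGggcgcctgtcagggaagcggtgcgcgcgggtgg
Cdk6, chr5:3343643-3343942: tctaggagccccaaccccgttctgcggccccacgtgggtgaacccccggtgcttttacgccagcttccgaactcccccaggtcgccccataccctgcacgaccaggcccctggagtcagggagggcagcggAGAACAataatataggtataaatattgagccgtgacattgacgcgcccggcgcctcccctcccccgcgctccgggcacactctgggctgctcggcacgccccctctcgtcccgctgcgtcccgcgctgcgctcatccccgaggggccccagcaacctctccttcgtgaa
Cdkn1b, chr6:134920151-134920450: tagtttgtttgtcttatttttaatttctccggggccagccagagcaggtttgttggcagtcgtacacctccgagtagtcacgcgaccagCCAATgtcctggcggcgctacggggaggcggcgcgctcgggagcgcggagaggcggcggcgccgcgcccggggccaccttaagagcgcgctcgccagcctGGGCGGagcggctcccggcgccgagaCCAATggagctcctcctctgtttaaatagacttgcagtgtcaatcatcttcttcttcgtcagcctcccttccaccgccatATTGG

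The upstream Ccnd3 promoter held 2 GC boxes and, beginning 243 bases before the start, 1 FOXO site, a motif found in 3.65% of 32851 mouse promoters of this length. The downstream Ccnd3 promoter held 2 GC boxes and 1 CCAAT box. The Cdk6 promoter held 1 progesterone response element half-site, beginning 119 bases before the start, which 19.0% of all promoters also hold. A promoter of Cdkn2c, not shown, held the same half-site, beginning 222 bases before the start. The log2 difference of Cdkn2c was 0.09 (limma adjusted p = 0.878). The Cdkn1b promoter held 1 GC box and 3 CCAAT boxes, motifs found in 35.7% and 37.4% of all promoters. None of the promoters of these genes held the full progesterone response element, found in 0.475% of all promoters, or either E2F site (0.514% and 1.07%). No 2 matches overlapped in the 4 promoters shown, and a match of letters is not a bound site. The G and C content of these 4 promoters was 59.3% to 67.0%, against a median of 52.7% over all promoters. The shares over all promoters were not adjusted for that content.

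Of 14 other genes of the G1 and S phase machinery measured, Wee1, a kinase that restrains CDK1 and CDK2 by phosphorylation, fell and none rose. The unadjusted p in limma was under 0.05 for 4 of the 14, against 13.0% of all genes. Wee1 had log2 values of 9.23, 8.94, 8.93, 8.86 and 9.17 in PRKO pools 1 to 5, against 9.37, 9.47, 9.32, 9.46 and 9.33 in PR+/- pools 1 to 5, without overlap. Its log2 difference was -0.37 (SE 0.08, 95% interval -0.54 to -0.19, limma adjusted p = 0.0307), a call lost without any 1 of 7 pools (PRKO 2 to 4 and PR+/- 1, 2, 4 and 5, limma adjusted p up to 0.0905). The median log2 difference over the 14 genes was -0.03.

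The retinoblastoma family and the E2F factors, which lie downstream of the D cyclin kinases, held no call among 13 genes in limma. The unadjusted p was under 0.05 for 2 of the 13, against 13.0% of all genes. Rbl2, which encodes the pocket protein p130 of resting cells, averaged 8.39 ± 0.20 in PRKO and 8.71 ± 0.10 in PR+/- (SD, n = 5 pools each). Its log2 difference was -0.32 (SE 0.09, limma adjusted p = 0.110), and E2f3, an activating E2F factor, had -0.22 (SE 0.10, limma adjusted p = 0.328).

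Transcripts of proliferation itself did not pass in either direction. Of 17 DNA replication genes and 17 mitosis genes measured, none passed in limma. In each list 1 gene had an unadjusted p under 0.05, against 13.0% of all genes. The mean log2 value of the replication genes ran from 8.36 to 8.69 in PRKO pools and from 8.42 to 8.71 in PR+/- pools. That of the mitosis genes ran from 8.39 to 8.79 in PRKO pools and from 8.56 to 8.79 in PR+/- pools, so the genotypes overlapped in both lists. Pcna, the sliding clamp of DNA polymerase, had a log2 difference of 0.27 (SE 0.08, 95% interval 0.09 to 0.45, limma adjusted p = 0.144), and Tyms, thymidylate synthase, had -0.13. Aurka and Ttk, both mitotic kinases, had log2 differences of -0.20 and -0.19 (limma adjusted p = 0.341 and 0.389). The median log2 difference was 0.05 for replication genes and -0.04 for mitosis genes, against -0.02 over all genes. Differences were negative in 7 and positive in 10 of the replication genes, and negative in 13 and positive in 4 of the mitosis genes. Over all genes 11000 were negative and 8938 positive. A small shift shared by a list was not tested.

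Of 15 genes for ubiquitin ligases and other proteins that control the stability of p27, p21 and D cyclins, none passed in limma. The unadjusted p was under 0.05 for 1 of the 15, against 13.0% of all genes. Rbx1, the RING subunit of cullin ligases, had a log2 difference of 0.24 (SE 0.08, limma adjusted p = 0.191). With its probe sets averaged, the difference was 0.17 (SE 0.06, limma adjusted p = 0.204). Skp2, the F-box protein that targets p27, had a log2 difference of 0.15 (SE 0.08, limma adjusted p = 0.465). In the list of p53 targets none of 14 genes passed in limma (4 at an unadjusted p under 0.05, against 13.0% of all genes). Zmat3 and Ccng1 had log2 differences of 0.20 and -0.20 (limma adjusted p = 0.180 and 0.268).

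Of 12 measured factors and kinases known to act on transcription or stability of these genes, Foxo3 fell and none rose. At an unadjusted p under 0.05 stood 5 of the 12, against 13.0% of all genes, and in 4 of the 12 the genotypes did not overlap, against 4.42% of all genes. The log2 differences of the 12 ran from -0.45 to 0.31, with 5 negative and 7 positive. Foxo3 is a forkhead factor that can activate Cdkn1b and is best known in the ovary for holding primordial follicles at rest in the oocyte. Its log2 values were 8.87, 8.87, 9.02, 8.75 and 9.04 in PRKO pools 1 to 5, against 9.31, 9.26, 9.53, 9.41 and 9.29 in PR+/- pools 1 to 5. All PRKO pools lay under all controls. The log2 difference was -0.45 (SE 0.08, 95% interval -0.62 to -0.28, limma adjusted p = 0.00553), and the limma adjusted p without any 1 pool was at most 0.0209.

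Among 13 other growth arrest genes, Btg1, an antiproliferative partner of the mRNA deadenylase complex, rose and none fell. The unadjusted p in limma was under 0.05 for 2 of the 13, against 13.0% of all genes. Btg1 had log2 values of 11.22, 10.94, 11.10, 11.06 and 11.33 in PRKO pools 1 to 5, against 10.67, 10.76, 10.62, 10.64 and 10.66 in PR+/- pools 1 to 5. The pools did not overlap, and the controls lay close together. The log2 difference was 0.46 (SE 0.08, 95% interval 0.29 to 0.63), a level in PRKO 1.38 times that in PR+/-, with a limma adjusted p of 0.00388 (at most 0.0162 without any 1 pool). In the 8 lists together, 2 of 115 measured genes fell and 1 rose (2.61%), a share near that of all genes. An unadjusted p under 0.05 in limma was found for 20 of the 115, against 13.0% of all genes. The genotypes did not overlap in 10 of the 115, Rbl2, Rbx1 and Zmat3 among them, against 4.42% of all genes.

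**Figure D3:**
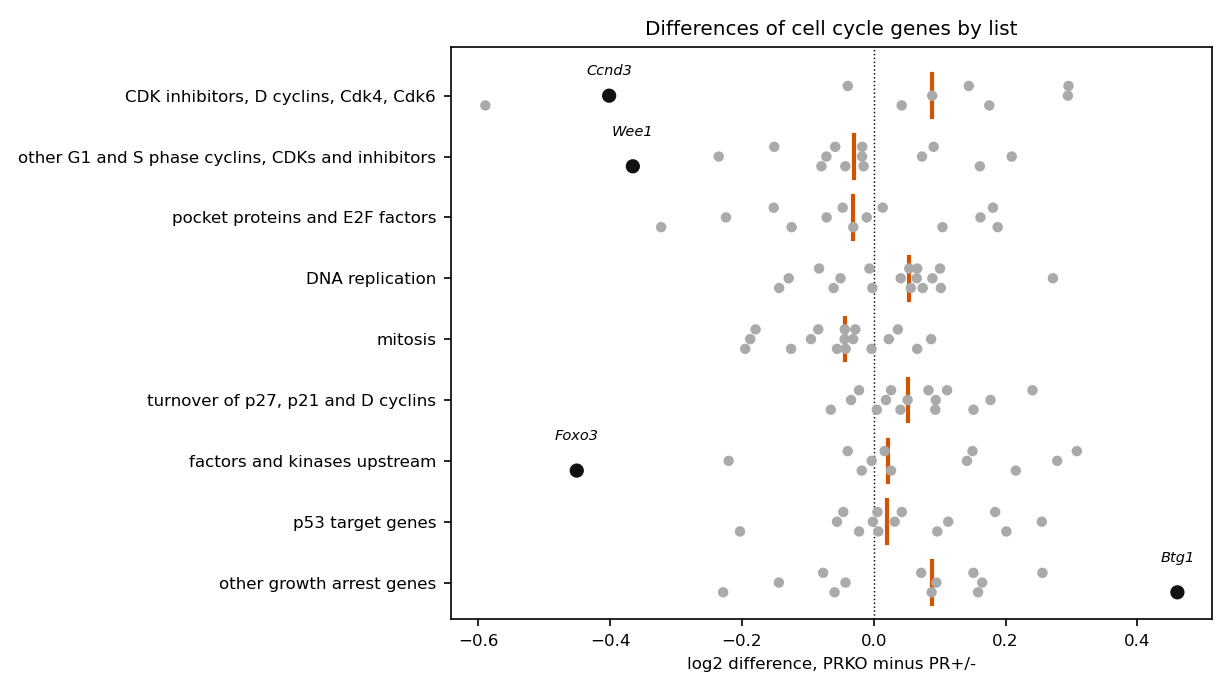
Log2 differences, PRKO minus PR+/- (horizontal axis), of the measured genes of each list (rows), where black points passed at an adjusted p under 0.05, grey points did not, and orange bars are list medians. Ccnd3, Wee1 and Foxo3 fell and Btg1 rose, and the list medians lay between -0.04 and 0.09.

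The genes whose values followed Ccnd3 most closely within genotypes were Frmd8, Gas1 and Plxnd1. After each genotype's mean was subtracted, their Pearson correlations with Ccnd3 over the 10 pools were 0.947, 0.935 and 0.931, and their Spearman correlations were 0.915, 0.952 and 0.867. They were the highest by Pearson correlation of 13229 genes above the background level, so no p is given. Between the genotypes none of the 3 passed (log2 differences of 0.16, -0.06 and 0.30, limma adjusted p of 0.515, 0.861 and 0.225).

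**Figure D4:**
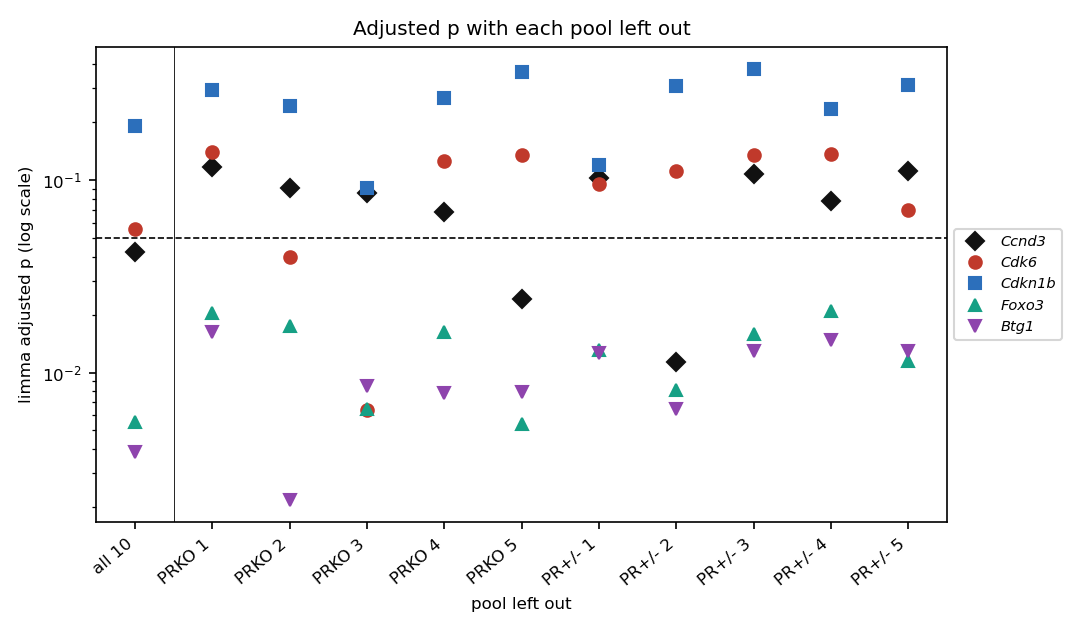
Limma adjusted p (vertical axis, log scale) of Ccnd3, Cdk6, Cdkn1b, Foxo3 and Btg1 with all 10 pools and with each pool left out (horizontal axis), where the dashed line is 0.05. Foxo3 and Btg1 stayed under the line throughout, Ccnd3 was under it without PRKO pool 5 or PR+/- pool 2, Cdk6 without PRKO pool 2 or 3, and Cdkn1b never.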

How the data were processed

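The authors deposited log2 expression values per probe set. Partek is named, with no version or settings, per the submitters' processing notes, and how the signals were corrected, normalized and summarized is not stated there. The RNA came from Tri Reagent extraction and was hybridized as biotin-labelled cRNA, per the labels' protocols. Of 35557 probe sets, 21789 carried 1 gene symbol, 1621 several and 12147 none (21698 matched by Entrez ID to a RefSeq table of GRCm38.p6, 0 symbols updated). The probe set with the highest mean was kept for each of 19938 genes. Arrays have no read depth, so the number of pools limits the precision.

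The genotypes were compared in R 4.3.3 with limma 3.58.1 (no block, no filter, two-sided), with Benjamini-Hochberg adjustment over all genes and a threshold of 0.05. Intervals are limma's 95% intervals. The members and lists were chosen with earlier results of these data known, so no list was tested. Named are all members and, from each of 8 lists, the genes that passed or otherwise the 2 with the smallest p, and the 3 genes most correlated with the member of smallest p. Pools came from separate animals, per the series design. The fit was tested on simulated data with known changes, 50 genes at each size. Noise was drawn independently for each gene at its residual SD, so deviations that genes of a pool share were not simulated. Averaged over genes of small and large spread, the fit recovered 18% of 1.2-fold, 82% of 1.5-fold, 100% of 2-fold and 98% of 3-fold changes. There were 12 false calls among 161. A gene with a small difference that did not pass is therefore not shown to be unchanged. Alternatives were a replicate block, array weights, a robust prior, a trend of the prior with intensity, each array centred on its median, quantile normalization, a filter that removed genes below the 30th percentile, averaged probe sets per gene, a fit of every probe set, and omission of 1 pool at a time.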

Additional observations from a re-analysis of the deposited data

Results flagged for a closer look

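Within groups of 5 pools, 3 values stood far from the others of their group by Dixon's test, of 48 groups examined, and chance alone gives about 1 in 20. Cdkn2c in PRKO pool 5 had a log2 value of 8.17, the next PRKO pool lying at 7.29. Aurka in PRKO pool 4 had 8.65, the next PRKO pool lying at 8.92. Rbx1 in PR+/- pool 3 had 8.51, the next PR+/- pool lying at 8.80.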

How the results depend on the processing

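The count of genes past the threshold over the whole array was 491, and from 360 to 488 with each pool left out. It ran from 472 to 598 under the other settings that tested genes. The part of it higher in PRKO was 150, from 85 to 161 with each pool left out and from 138 to 200 under those settings. When all 35557 probe sets were fitted, 455 probe sets passed, 90 of them higher in PRKO, which is not a count of genes. Among the 9 cell cycle genes the count was 1, from 0 to 1 with each pool left out. It was 2, Ccnd3 and Cdk6, with median centring, dim genes left out, an intensity trend, array weights or the replicate block, and 0 when all probe sets were fitted. The log2 difference of Ccnd3 was -0.40 there (limma adjusted p = 0.104), and from -0.47 to -0.35 with each pool left out. That of Cdk6 was -0.59 with median centring, dim genes left out, the intensity trend or the replicate block and -0.66 with array weights (limma adjusted p = 0.0420, 0.0450, 0.0404, 0.0207 and 0.0185), and from -0.72 to -0.50 with each pool left out. Cdkn2c reversed to -0.04 with array weights and to -0.10 without PRKO pool 5 (from -0.10 to 0.17 with each pool left out), and Cdkn2d to 0.01 without PRKO pool 3 (from -0.12 to 0.01), none of them past the threshold. The call of Wee1 was also lost with median centring, the replicate block and all probe sets (limma adjusted p = 0.0510, 0.0577 and 0.0729), and Pcna passed without PR+/- pool 2 (limma adjusted p = 0.0439). The cause of these changes was not tested. The labels do not say that a shared replicate number marks a shared litter or day. Deviations of same-numbered pools correlated at 0.17, 0.22, 0.32, -0.10 and -0.05 for numbers 1 to 5, and 3 of 5 PRKO pools correlated best with their own number, so pairing was not shown for every number. With 5 pools per genotype, the number of arrays limits the precision.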
